A study of Sus scrofa with 32 samples.

Results

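The transcripts described here encode 9 proteins of fatty acid and triglyceride synthesis, measured in the liver of pig fetuses. They were found as the non-control probes of the array whose RefSeq accession belongs to one of the 9 pig genes, which gave 21 probes, and the probe with the highest mean over all arrays stood for its gene. All 9 genes were among the 28670 features tested, 1596 of which carry a gene symbol, and the probe of each member was well above background on all 32 arrays. Whole liver was taken from runts and from controls at gestational days 37, 50, 70 and 110, the last close to term, with 4 single-colour Agilent arrays in each of the 8 groups. Every dam was a gilt from which 1 uterine horn and ovary had been removed, an operation that crowds the fetuses in the horn that remains. The label protocol speaks of littermate pairs from separate gilts, so the controls grew in crowded uteri as well, and the labels used here give neither the size that made a fetus a runt nor its sex.

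De novo lipogenesis turns cytosolic acetyl-CoA into fatty acids. ACLY (NM_001105302) makes that acetyl-CoA from citrate and ACSS2 (NM_001143695) makes it from acetate. ACACA (NM_001114269) carboxylates it to malonyl-CoA in the committed step, FASN (NM_001099930) builds palmitate, and SCD (NM_213781) places a double bond in the product. The transcription factor SREBP1, made from SREBF1 (NM_214157), drives much of this enzyme set in liver. LPIN1 (NM_001130734) and DGAT1 (NM_214051) act late in the assembly of triglycerides, and PNPLA3 (NM_001146126) sits on lipid droplets and is best known in humans for its link to fatty liver.

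Levels are given as the log2 of the scanner's processed intensity minus the log2 75th percentile of the same array, so that 0 is the signal at that percentile and 1 unit is 2-fold. On every array 51.3% to 69.4% of spots were well above background, and none was saturated. Differences between days were called in limma at a Benjamini-Hochberg adjusted p under 0.05 together with at least 2-fold. Runt minus control differences were called at that adjusted p alone. The arrays of a day shared 1 position on their slides, apart from 1 day 50 runt, so day and array position cannot be told apart. A 12-array set (slides 1 to 3) also stood apart from the other 20 arrays (slides 4 to 9). These 12 arrays were replicate 4 of every group and replicate 3 of day 37 runts, day 50 controls, day 70 controls and day 110 runts. A difference within slides 1 to 3 therefore rests on these few arrays, in many groups on replicate 4 alone. With the groups in the fit, the first set lay lower in SREBF1 by 0.69 and higher in ACACA by 0.52, while both sets held runts and controls. The labelled tissue was checked against the hepatocyte markers ALB, APOA1, TF, SERPINA1 and TTR, 5 of 8 listed, whose linear signals summed to between 1354 and 3870 times the 75th percentile on every array.

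Over gestation most of this enzyme set stayed within 2-fold, while the probe that stood for ACACA was higher and that for PNPLA3 lower near term. ACACA was 2.27-fold higher at day 110 than at day 37 in runts and 2.06-fold higher in controls. PNPLA3 was 2.20-fold lower in runts and 2.87-fold lower in controls over the same span. In both courses 2 of 9 members were therefore called between these days, beside 27.1% of all features in runts (14.8% as higher and 12.2% as lower) and 29.3% in controls (15% as higher and 14.3% as lower). The ACACA calls in both courses and the PNPLA3 call in runts were lost with another background correction and with all probes of a gene averaged. No member was called between runts and controls at any of the 4 days. In whole liver, fewer cells of a type and less RNA per cell cannot be told apart.

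**Figure D1:**
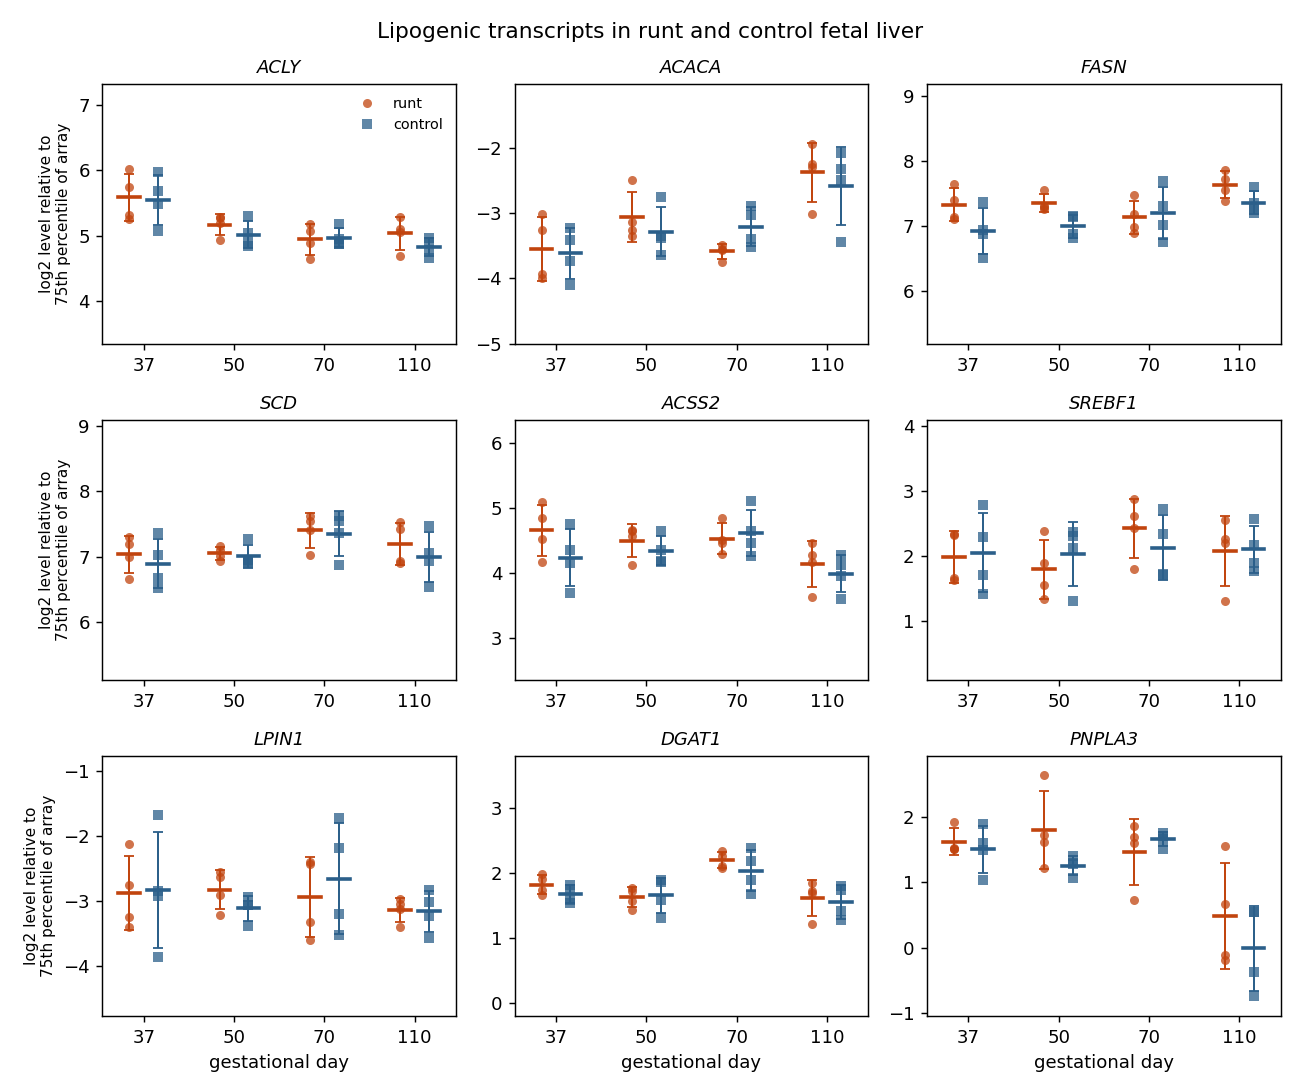
Level of each of the 9 transcripts in every fetal liver by gestational day, on the log2 scale relative to the 75th percentile of the array, with runts (circles) left of controls (squares). Thick lines are group means and error bars are SD (n = 4); all panels span the same log2 range. ACACA is highest and PNPLA3 lowest at day 110, and runts and controls overlap in every panel and day except FASN at day 50.

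PNPLA3 had the largest difference of the set. At day 37 its level was 1.53, 1.51, 1.93 and 1.52 in runts, against 1.03, 1.50, 1.90 and 1.60 in controls. At day 50 it was 2.64, 1.62, 1.73 and 1.23 in runts, against 1.28, 1.40, 1.30 and 1.06 in controls. At day 70 the runts had 1.60, 1.69, 1.87 and 0.73, against 1.72, 1.66, 1.77 and 1.52 in controls. Through these 3 days every liver except 1 day 70 runt lay above 1. At day 110 the level was -0.18, 1.56, -0.11 and 0.67 in runts, against 0.54, 0.54, -0.38 and -0.75 in controls. All 4 day 110 controls lay below every control of the earlier days, whereas 1 day 110 runt, at 1.56, still lay among the runts of day 37.

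PNPLA3 fell between days 70 and 110 in controls, to -0.01 ± 0.66 at day 110, against 1.67 ± 0.11 at day 70 (SD, n = 4; log2 difference -1.68, SE 0.33, limma adjusted p = 0.000380). It was the 1 member called in that comparison, where 12.4% of all features passed and 7.11% passed as lower. In runts it averaged 0.48 ± 0.81 at day 110 and 1.47 ± 0.51 at day 70, a difference of -0.99 (SE 0.33, adjusted p = 0.0308) that stopped just short of 2-fold. That step was called without day 70 runt replicate 4 (-1.24) or day 110 runt replicate 2 (-1.35) or 4 (-1.05). Between days 37 and 110 it fell by 1.14 on the log2 scale in runts (SE 0.33, adjusted p = 0.00601) and by 1.52 in controls (SE 0.33, adjusted p = 0.000417). The course from day 37 to day 110 differed between runts and controls by 0.38 (95% interval -0.59 to 1.35, adjusted p = 1.00), so the smaller decrease in runts was not shown to be a difference. The call for the runt course from day 37 was lost within slides 4 to 9 (-0.83, adjusted p = 0.192) and with another background correction, normexp (-0.96), and went under 2-fold without day 110 runt replicate 1 (-0.92) or replicate 3 (-0.94).

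ACACA, the carboxylase, was the member that rose. At day 37 its level was -3.94, -3.99, -3.26 and -3.01 in runts, against -3.74, -4.10, -3.40 and -3.22 in controls. At day 50 it was -3.34, -3.26, -3.13 and -2.49 in runts, against -3.39, -3.64, -3.35 and -2.75 in controls. At day 70 runts had -3.56, -3.54, -3.49 and -3.75, against -3.40, -3.51, -2.89 and -3.02 in controls. These are dim signals, and runts and controls overlap at each of these days. At day 110 the level was -3.01, -2.30, -2.24 and -1.93 in runts, against -3.43, -2.32, -2.49 and -2.07 in controls. Replicate 1 was the lowest at day 110 in runts and in controls, and the other 6 livers of that day lay above every liver of days 37 and 70.

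The increase of ACACA in runts came between days 70 and 110, with -2.37 ± 0.45 at day 110, against -3.59 ± 0.11 at day 70 (SD, n = 4; log2 difference 1.22, SE 0.28, adjusted p = 0.00196). ACACA was the 1 member called there, beside 11.1% of all features (4.31% as higher), and all 4 day 110 runts lay above all 4 day 70 runts. In controls the same step was 0.63 (SE 0.28, adjusted p = 0.103) and was not called. From day 37 to day 110 ACACA rose by 1.18 in runts (SE 0.28, adjusted p = 0.00102) and by 1.04 in controls (SE 0.28, adjusted p = 0.00302). The control value sits at the 2-fold mark, and it was 1.00, 0.88, 0.95 or 0.87, and no longer called, without day 37 control replicate 1 or 2 or day 110 control replicate 2 or 4. With normexp ACACA was at 0.23 in runts and 0.30 in controls from day 37 to day 110 and at 0.14 in runts from day 70, with no call. Within slides 4 to 9 its difference between days 70 and 110 in runts was 0.88 (adjusted p = 0.0570). Slides 1 to 3 gave 1.66, from day 110 runt replicates 3 and 4 against day 70 runt replicate 4 alone.

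**Figure D2:**
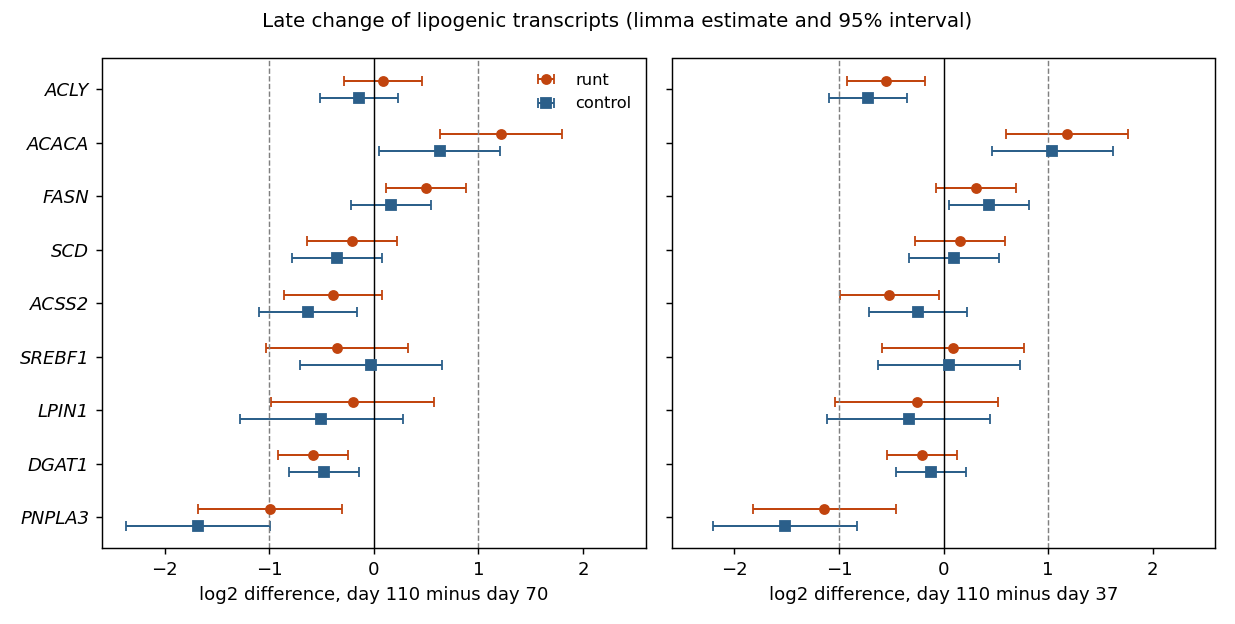
Log2 difference of each transcript between day 110 and day 70 (left) and between day 110 and day 37 (right), with the limma estimate and its 95% interval, runts above controls in each row. Dashed lines mark 2-fold. PNPLA3 lies left of 0 and ACACA right of 0 in all 4 contrasts, and the estimates of the other 7 transcripts lie within the dashed lines.

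Other probes gave further calls for PNPLA3 in controls and none for ACACA near term. The 2 other PNPLA3 probes were lower at day 110 than at day 37 in controls by -1.04 (adjusted p = 0.0126) and -1.23 (adjusted p = 0.00540), and both were called. In runts they were at -0.48 and -0.66 and were not called, so the runt call rests on the probe with the highest mean. From day 70 to day 110 those probes were at -0.96 and -1.63 in controls, the second of them called, and at -0.12 and -0.41 in runts. The 3 other ACACA probes were at 0.95, 0.41 and 0.59 in runts and at 1.40, 0.16 and -0.18 in controls from day 37 to day 110, none of them called. The first of them, at 0.95 and 1.40, was well above background at day 37 on 0 of 4 runt and 1 of 4 control arrays. Its values therefore start near background. The third was well above background on 2 of 4 day 37 runt arrays. With all probes of a gene averaged, ACACA was at 0.78 in runts and 0.61 in controls, and PNPLA3 was at -0.76 in runts, with no call for these. That first ACACA probe, dim and above background on 20 of 32 arrays, spread widely among day 50 runts (-2.72 ± 2.74, against -4.53 ± 0.13 in day 50 controls; SD, n = 4). It was called higher at day 50 than at day 37 in runts (2.15, adjusted p = 0.0396) and lower at day 70 than at day 50 (-2.00, adjusted p = 0.0387), which no other ACACA probe was.

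**Figure D3:**
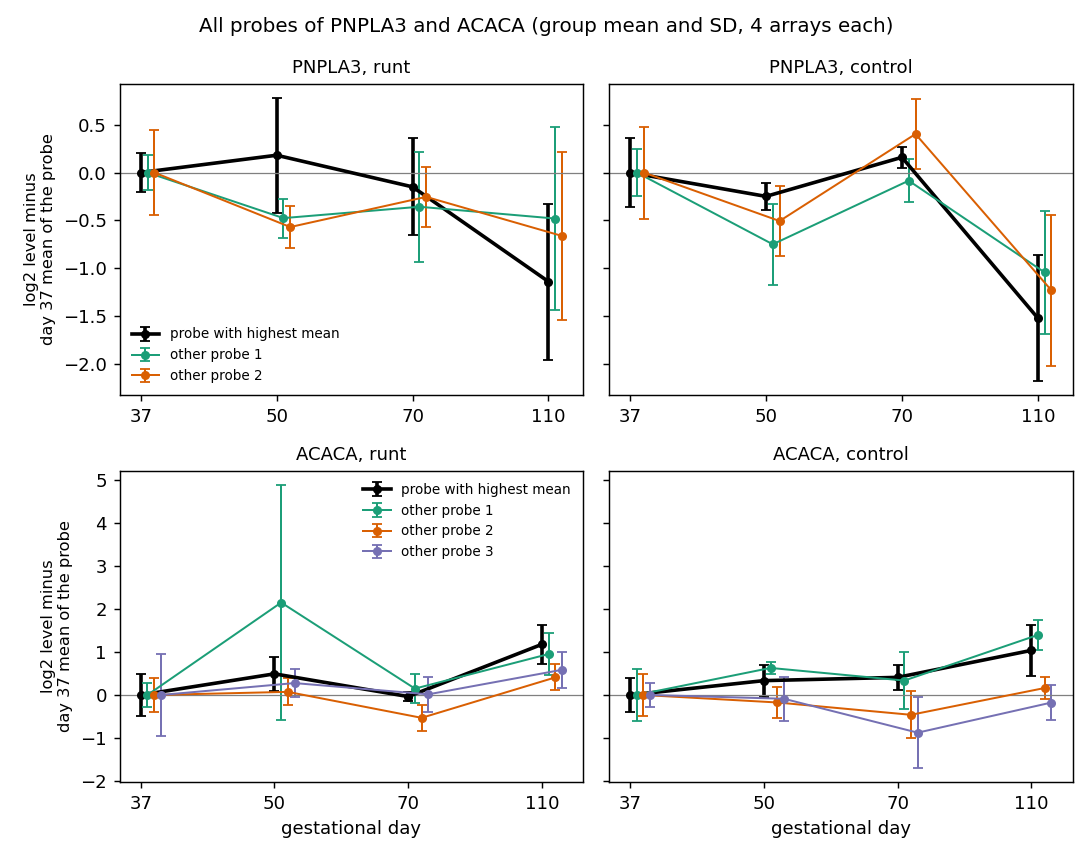
Level of every probe of PNPLA3 (top, 3 probes) and ACACA (bottom, 4 probes) in runts (left) and controls (right), as the log2 difference from the probe's own day 37 mean by gestational day. Points are group means and bars are SD (n = 4); the thick black line is the probe that stands for the gene. The 3 PNPLA3 probes are all lower at day 110 in controls, and one dim ACACA probe has an SD of 2.74 in day 50 runts.

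The enzymes that supply acetyl-CoA had small differences. ACLY was 5.25, 5.32, 5.75 and 6.02 in day 37 runts, against 5.06, 5.48, 5.97 and 5.69 in day 37 controls. By day 110 it was 4.69, 5.29, 5.09 and 5.06 in runts, against 4.96, 4.78, 4.91 and 4.66 in controls. All 4 controls of day 110 lay below all 4 controls of day 37, while 1 runt of day 110 lay within the range of the day 37 runts. ACLY was lower at day 110 than at day 37 by -0.55 in runts (adjusted p = 0.0133) and by -0.72 in controls (adjusted p = 0.00152), under 2-fold in both. The other ACLY probe was at -0.37 (adjusted p = 0.117) in runts and -0.80 (adjusted p = 0.00101) in controls. The means of ACLY at days 50 and 70 lay between 4.94 and 5.17, and no step between neighbouring days passed an adjusted p of 0.05. ACSS2 averaged 4.65 ± 0.40 in runts and 4.24 ± 0.44 in controls at day 37, 4.50 ± 0.26 in runts and 4.34 ± 0.22 in controls at day 50, and 4.53 ± 0.23 in runts and 4.62 ± 0.36 in controls at day 70. At day 110 ACSS2 was lowest, 4.14 ± 0.36 in runts and 3.99 ± 0.29 in controls (SD, n = 4), and its step from day 70 was -0.39 in runts (adjusted p = 0.233) and -0.63 in controls (adjusted p = 0.0436).

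FASN, which builds palmitate, differed between days by less than 2-fold, with tests close to the threshold. At day 37 it was 7.11, 7.15, 7.41 and 7.65 in runts, against 6.51, 6.89, 6.94 and 7.37 in controls. At day 50 it was 7.27, 7.30, 7.55 and 7.31 in runts, against 6.88, 6.83, 7.14 and 7.16 in controls. At day 70 it was 6.90, 7.48, 6.99 and 7.18 in runts, against 6.77, 7.03, 7.70 and 7.32 in controls. At day 50 every runt lay above every control, and at days 37 and 70 the groups overlapped. Taken by replicate number at day 37, the runt was higher in 4 of 4 pairs for 2 of 9 members, FASN (by 0.26 to 0.60) and ACSS2 (by 0.17 to 0.69). With the replicate block neither passed (adjusted p = 1.00 each). At day 110 this held for 1 member, ACACA (by 0.02 to 0.43), while FASN and ACSS2 were higher in 3 of 4 pairs (lowest -0.21 and -0.65). The share of all features with such pairs was not counted, so these counts are no result about the members. At both days the replicate 3 pair set a runt of slides 1 to 3 against a control of slides 4 to 9. With the groups in the fit, the first slide set lay higher in FASN by 0.25, in ACSS2 by 0.28 and in ACACA by 0.52. In that pair runt and slide set cannot be told apart. At day 110 FASN was 7.40, 7.73, 7.56 and 7.87 in runts, against 7.61, 7.36, 7.29 and 7.20 in controls, again overlapping. From day 70 to day 110 it was 0.50 higher in runts (SE 0.19, adjusted p = 0.0484) and 0.16 higher in controls (adjusted p = 0.575). From day 37 to day 110 it was 0.31 higher in runts (adjusted p = 0.170) and 0.44 higher in controls (SE 0.19, adjusted p = 0.0496), all of them under 2-fold. Neither value stayed under 0.05 with the authors' deposited table of log2 signals (adjusted p = 0.0739 in runts from day 70 and 0.340 in controls from day 37) or with normexp (0.0819 in runts and 0.238 in controls). Leaving out 1 array of the groups compared took the runt value above 0.05 (up to 0.141) unless it was day 70 runt replicate 2 or day 110 runt replicate 1, and the control value (up to 0.201) unless it was replicate 4 of day 37 or of day 110. Within slides 1 to 3, where replicate 4 alone stands for the controls of days 37 and 110, FASN was at -0.17 from day 37 and at -0.31 from day 70. The other FASN probes had the same sign in these 4 contrasts, between 0.07 and 0.60.

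SCD, the desaturase, had a mean between 6.89 and 7.40 in all 8 groups and no contrast at an adjusted p under 0.05. It averaged 7.03 ± 0.28 in runts and 6.89 ± 0.38 in controls at day 37, 7.05 ± 0.10 in runts and 7.01 ± 0.18 in controls at day 50, and 7.40 ± 0.27 in runts and 7.35 ± 0.34 in controls at day 70. At day 110 SCD averaged 7.20 ± 0.32 in runts and 6.99 ± 0.38 in controls (SD, n = 4). Another SCD probe was -0.80 lower at day 110 than at day 70 in controls (adjusted p = 0.0101), under 2-fold, while the probe with the highest mean was at -0.36. SREBF1, the regulator, averaged 1.99 ± 0.40 in runts and 2.05 ± 0.61 in controls at day 37, 1.80 ± 0.46 in runts and 2.03 ± 0.49 in controls at day 50, and 2.43 ± 0.45 in runts and 2.13 ± 0.50 in controls at day 70. At day 110 SREBF1 averaged 2.08 ± 0.54 in runts and 2.10 ± 0.36 in controls, a difference from day 37 of 0.09 in runts (95% interval -0.58 to 0.77) and 0.05 in controls (95% interval -0.62 to 0.73). The other SREBF1 probe was at -0.38 in runts and -0.70 in controls without a call.

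Among the genes of triglyceride assembly, DGAT1, which joins the last acyl chain to diacylglycerol, had a day 70 maximum. It was 1.73, 1.43, 1.77 and 1.57 in day 50 runts, against 1.31, 1.89, 1.86 and 1.58 in day 50 controls. At day 70 it was 2.34, 2.11, 2.26 and 2.08 in runts, against 2.19, 1.68, 2.39 and 1.90 in controls. At day 110 it was 1.22, 1.69, 1.73 and 1.85 in runts, against 1.74, 1.41, 1.81 and 1.28 in controls. In runts the day 70 livers lay above all others of days 50 and 110, and in controls the days overlapped. DGAT1 was 0.57 higher at day 70 than at day 50 in runts (SE 0.16, adjusted p = 0.0110) and 0.38 higher in controls (adjusted p = 0.0873). It was lower at day 110 than at day 70 by -0.58 in runts (SE 0.16, adjusted p = 0.00942) and by -0.48 in controls (SE 0.16, adjusted p = 0.0293), all under 2-fold. LPIN1, a phosphatidate phosphatase that makes diacylglycerol, was dim and variable, with day 37 levels of -3.39, -2.75, -2.12 and -3.24 in runts, against -3.85, -2.84, -1.68 and -2.92 in controls. It averaged -2.82 ± 0.30 in runts and -3.11 ± 0.19 in controls at day 50, and -2.93 ± 0.61 in runts and -2.65 ± 0.85 in controls at day 70. At day 110 LPIN1 averaged -3.13 ± 0.19 in runts and -3.15 ± 0.32 in controls (SD, n = 4), and no contrast of it had an adjusted p under 0.05.

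In the steps up to day 70, 0 of 9 members were called. The background was 5.83% of features in runts and 3.42% in controls from day 37 to day 50, and 7.98% in runts and 7.66% in controls from day 50 to day 70. At any fold size an adjusted p under 0.05 was reached by 3 members in runts and 4 in controls from day 37 to day 110, beside 50% of all features in runts and 53.1% in controls. From day 70 to day 110 the counts were 4 members in runts and 3 in controls, beside 24.5% of features in runts and 26.5% in controls. From day 37 to day 110 the 2 groups of arrays were wholly apart in 1 member in runts (ACACA) and in 2 in controls (ACLY and PNPLA3), beside 40.8% of features in runts and 45.7% in controls. From day 70 to day 110 this held for 2 members in runts (ACACA and DGAT1) and 1 in controls (PNPLA3), beside 24.8% of features in runts and 24.6% in controls. From day 50 to day 70 it held for 2 in runts (ACACA and DGAT1) and 1 in controls (PNPLA3), beside 27.6% of features in runts and 27.8% in controls. The median of the 9 members from day 70 to day 110 was -0.21 in runts and -0.36 in controls, beside medians over all features of 0.05 in runts and 0.04 in controls. Contrasts of one course that meet at a day share the arrays of that day.

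Of 70 further genes listed for the pathway, 12 were measured. From day 37 to day 110, 3 of the 12 rose and 1 fell in runts, and 4 rose and 1 fell in controls. Of all features 27.1% were called in runts (14.8% as higher and 12.2% as lower) and 29.3% in controls (15% as higher and 14.3% as lower). PRKAA2, a catalytic subunit of AMP-activated protein kinase, which phosphorylates and inhibits acetyl-CoA carboxylase, rose by 2.00 in runts (adjusted p = 1.71e-09) and by 2.30 in controls (adjusted p = 1.32e-10). The coactivator PPARGC1A rose by 1.75 in runts (adjusted p = 4.51e-09) and by 1.81 in controls (adjusted p = 2.38e-09), and the desaturase SCD5 rose by 1.32 in runts (adjusted p = 0.0265) and by 1.70 in controls (adjusted p = 0.00459). The SCD5 call was lost with normexp (0.25 in runts and 0.71 in controls). In runts it was also lost within slides 4 to 9 (0.98), with the compared arrays alone (1.32, adjusted p = 0.0748) and without day 37 runt replicate 2 (0.96) or 3 (1.08) or day 110 runt replicate 1 (1.22) or 4 (1.08). In controls within slides 1 to 3, with replicate 4 alone at each of the 2 days, SCD5 was at 2.08. NR1H3, the oxysterol receptor LXR alpha, was called in controls (1.19, adjusted p = 2.09e-08) and was at 0.99 in runts (adjusted p = 4.95e-07), where it was called without day 37 runt replicate 1 (1.00) or day 110 runt replicate 1 (1.05) or 2 (1.06). ELOVL3, an elongase of fatty acids, was not well above background on any day 110 array. Its measured signal was lower at day 110 than at day 37 (limma adjusted p = 2.03e-08 in runts and 1.99e-07 in controls). ELOVL3 passed the filter only through groups of earlier days, so these tests set signal near background against groups that admitted the probe. Set against the dimmest signal that counted as above background, the decrease was 2.91-fold in runts and 2.15-fold in controls. These folds were not themselves tested and depend on the background correction. With normexp ELOVL3 was at -0.70 in runts and -0.59 in controls, a smaller decrease than these folds, and was not called. In controls within slides 1 to 3, with replicate 4 alone at each day, it was at -2.55.

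Between days 70 and 110 ELOVL3 was the 1 pathway gene called in each course, as lower. At day 70 it stood well above background in 1 of 4 runts and 3 of 4 controls, so the runt call rests mostly on signal near background. The call was lost with normexp (-0.57 in runts and -0.59 in controls). Within slides 1 to 3 ELOVL3 was at -0.27 in runts and -1.94 in controls. In that step SCD5 was at 1.30 in runts (adjusted p = 0.0529), and it was called with the replicate block (adjusted p = 0.0253), with slide as a random block (1.26) and without day 70 runt replicate 1 (1.71) or day 110 runt replicate 2 (1.56). In controls SCD5 was at 1.00 (adjusted p = 0.135), called without day 110 control replicate 3 (1.38). PRKAA2 in runts (0.91) and PPARGC1A in controls (0.94) passed 2-fold with slide as a fixed block (1.04 and 1.01), PRKAA2 also without day 110 runt replicate 3 (1.02) and PPARGC1A without day 70 control replicate 3 (1.03) or day 110 control replicate 3 (1.03). In the 2 earlier steps of either course 0 of the 12 were called. ABHD5 was at -0.97 in runts from day 37 to day 50 (adjusted p = 0.00384) and was called with normexp and without day 37 runt replicate 1 (-1.09) or 3 (-1.03) or day 50 runt replicate 2 (-1.08) or 3 (-1.05). PRKAA2 was at 0.95 in controls from day 50 to day 70 (adjusted p = 0.00105) and was called within slides 4 to 9 (1.17) and without day 70 control replicate 4 (1.06). The other 7 measured genes, PPARG, ACSL4, AGPAT1, PNPLA2, ABHD5, PRKAA1 and PRKAG1, were called in no contrast between days. PPARG passed from day 37 to day 110 without day 37 runt replicate 4 (-1.01) in runts and without day 110 control replicate 1 (-1.04) in controls. PRKAA1, the other catalytic subunit of the kinase, was near the mark from day 37 to day 110, at 0.88 in runts (adjusted p = 1.87e-05) and 0.97 in controls (adjusted p = 3.89e-06), and it passed in controls without day 37 control replicate 2 (1.04) or day 110 control replicate 3 (1.05) or 4 (1.03) and with slide as a fixed block (1.03). The lipase PNPLA2, a relative of PNPLA3, was at 0.72 in runts (adjusted p = 0.000193) and 0.64 in controls (adjusted p = 0.000642), with all day 110 livers above all day 37 livers in each course. The median of the 12 was 0.46 in runts and 0.37 in controls over that span.

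Marker transcripts of other cell types of the fetal liver changed over the same days. The erythroid markers HBE1, RHCE, EPOR and TFRC, 4 of 7 listed, all fell from day 37 to day 110, with a median of -4.58 in runts and -4.08 in controls. Their linear signals summed to 1.79 to 7.53 times the 75th percentile in day 110 runts and 94.1 to 123 in day 37 runts, and to 2.72 to 13.5 in day 110 controls and 86.8 to 149 in day 37 controls. All 5 measured cell cycle genes of 6 listed fell as well (median -4.11 in runts and -3.73 in controls). The 3 measured macrophage markers (CD14, CD163 and SIGLEC1) and the 3 endothelial ones (NOS3, PECAM1 and CDH5) all rose in each course. The hepatocyte markers had a median of -0.12 in runts and -0.25 in controls, with ALB the 1 of 5 that was called, as higher in each. The part of these markers in the values of ACACA and PNPLA3 was not tested. Of 7 granulocyte markers listed, LTF, PR39, PGLYRP1 and MMP9 were measured. From day 50 to day 70 they rose in controls (4 of 4, median 1.86), and 0 of 4 were called in runts (median 0.80). In the step from day 70 to day 110, where PNPLA3 fell in controls, 4 of 4 fell in runts (median -2.66) and 3 of 4 in controls (median -2.17). Their summed signal was 14.4 to 53.2 in day 110 runts and 156 to 217 in day 70 runts. In controls it was 47.9 to 64.7 at day 110 and 198 to 310 at day 70. In the same step 4 of 4 erythroid markers were called lower in each course (median -3.98 in runts and -3.32 in controls). All 5 cell cycle genes were called lower as well (median -3.12 in runts and -2.84 in controls). Of the 3 macrophage markers, 2 were called higher in each course. The part of any of these markers in the values of PNPLA3 and DGAT1 was not tested. Of 8 adipocyte markers 6 were measured, and from day 37 to day 110 5 were called in runts (3 higher and 2 lower) and 4 in controls (3 higher and 1 lower). Their summed signal was 3.72 to 5.59 in day 110 runts and 7.32 to 15.1 in day 37 runts, and 5.29 to 7.65 in day 110 controls and 5.21 to 13.8 in day 37 controls.

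Among features with a symbol, the profiles most like that of ACACA over the 32 arrays were those of XIAP (Pearson r = 0.80), NOTCH4 (0.77) and HOPX (0.76). The profiles most like that of PNPLA3 were those of CA11 (0.83), MEA1 (0.82) and UNC5B (0.82). These correlations describe 32 arrays that share the course over the days and the slides.

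Runts and controls were compared at each day. In limma 0 of 9 members were called at day 37 (0% of features called), day 50 (0.0663%), day 70 (0%) and day 110 (0.014%), nor for the mean runt effect over the 4 days (0.248%). At an unadjusted p under 0.05 there was 1 member at day 37, 1 for the mean effect and 0 at the other days, while 726, 2117, 521 and 1261 features had such a p at days 37, 50, 70 and 110 and 2606 for the mean effect. FASN was the 1 member in each of these, with runt minus control differences of 0.40 at day 37, 0.36 at day 50, -0.06 at day 70 and 0.27 at day 110. Its mean runt effect was 0.24 (95% interval 0.05 to 0.43, adjusted p = 0.366), and at day 50 all 4 runts lay above all 4 controls, as 6.25% of features had 1 group wholly above the other. With normexp the day 50 difference of FASN was -0.26 and its mean effect -0.01, neither called. The other FASN probes gave mean effects of 0.25 and 0.20.

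**Figure D4:**
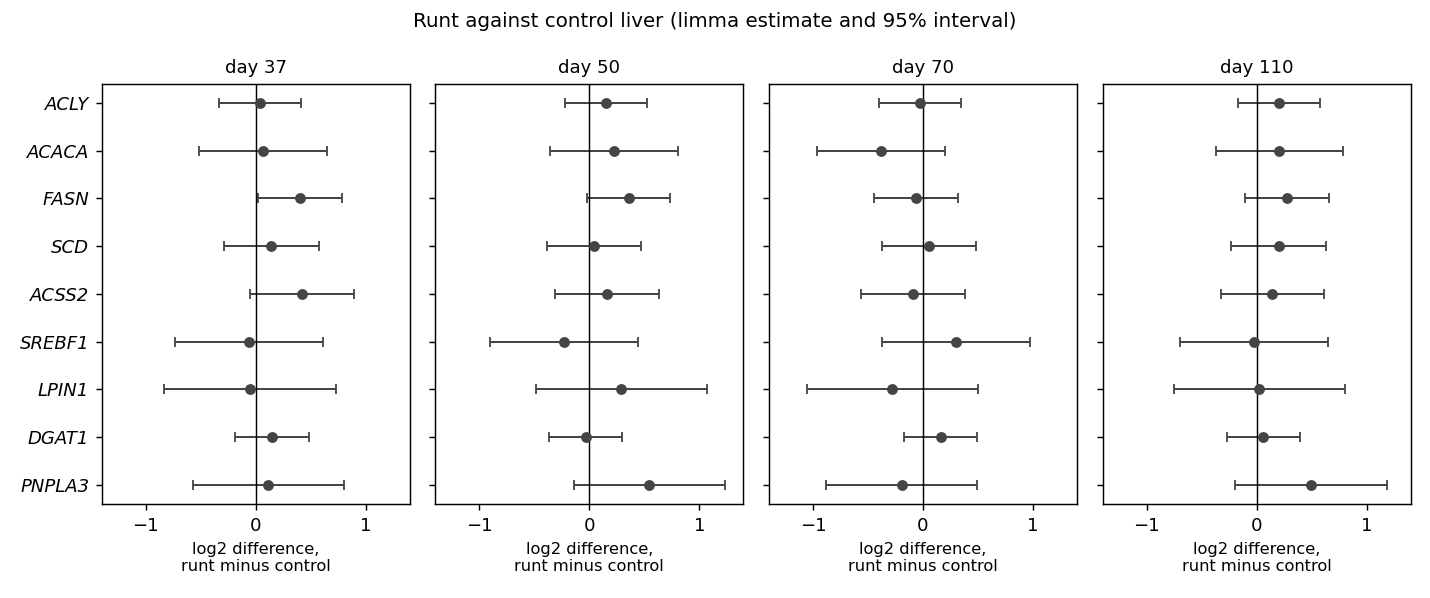
Runt minus control log2 difference of each transcript at the 4 gestational days, with the limma estimate and its 95% interval (4 runts and 4 controls a day). At day 37 the interval of FASN starts at 0.02, every other interval includes 0, and none of the differences was called after adjustment over all features.

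PNPLA3 had the largest runt minus control differences, 0.54 at day 50 (95% interval -0.14 to 1.23) and 0.50 at day 110 (95% interval -0.19 to 1.18), with groups that overlapped at each day. Without day 50 runt replicate 1, the lone array of slide 9, the day 50 value was 0.26, under the 0.39 of FASN and the 0.32 of ACACA, and with normexp it was 0.08. The day 110 value was 0.14 without day 110 runt replicate 2 and 0.25 without day 110 control replicate 4. Of the 36 differences over members and days, 25 were above 0. For 7 of the 9 members the intervals lay inside 2-fold at every day, whereas those of PNPLA3 at days 50 and 110 and of LPIN1 at day 50 (up to 1.07) and day 70 (down to -1.06) reached past it. The members' median difference was 0.11, 0.16, -0.06 and 0.20 at days 37, 50, 70 and 110, beside -0.01, -0.02, 0.02 and 0.04 over all features. With normexp the members' medians were -0.02, -0.46, -0.13 and 0.22, so their direction turned at days 37 and 50, beside 0.14, 0.34, 0.13 and 0.08 over all features. Whether the runt effect differed between days was tested by an F-test, which called 0 members (0.00349% of features), with an adjusted p of 1.00 for each. The course from day 37 to day 110 differed between runts and controls in 0 members (0%), the differences lying between -0.28 for ACSS2 and 0.38 for PNPLA3, and 0 members and 533 features had an unadjusted p under 0.05. The 12 other pathway genes gave 0 calls in these comparisons, whereas with normexp 6 of the 12 were called higher in runts at day 50 (0.58 to 1.05). Of the hepatocyte markers, ALB was lower in runts for the mean effect (-1.53, SE 0.29, adjusted p = 0.0223) and the other 4 did not pass, and the part of this in the values of the members was not tested.

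Between fetuses of one group, some members varied together. Each level was taken as its deviation from the mean of its own group, and the 36 pairs of members were tested over the 32 arrays by permutation within groups (two-sided, 100000 resamples, Benjamini-Hochberg over the pairs). The permutation took the livers of a group as exchangeable, so its p-values make no allowance for slide set or for replicate number. FASN and ACSS2 had the strongest relation, with a Pearson r of 0.86 and a Spearman rho of 0.85 (each permutation p = 1e-05, the smallest these resamples can give, and adjusted p = 0.00036). Of 28425 features with complete values, ACSS2 was the one whose deviations followed the FASN probe most closely. The relation was 0.82 without the 2 arrays farthest in FASN, 0.88 within slides 1 to 3, 0.81 within slides 4 to 9, and 0.74 with slide removed. Within a slide set, deviations were taken anew from the group means of that set. On slides 1 to 3 a group with 1 array then adds nothing, and a group with 2 gives mirrored values. A correlation there rests on few deviations and cannot decide whether a relation holds. For the other FASN probes against ACSS2 the relation over all arrays was 0.58 and 0.44.

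ACLY varied with both of them, at r = 0.61 and rho = 0.59 with ACSS2 and r = 0.56 and rho = 0.57 with FASN (permutation p = 0.00379 and 0.00523 for r, adjusted p = 0.0314 each; permutation p = 0.00402 and 0.00486 for rho, adjusted p = 0.0292 each). Without the 2 farthest arrays these were 0.49 and 0.44, and with slide removed 0.78 and 0.59. The relations were 0.57 and 0.70 within slides 1 to 3 and 0.49 and 0.63 within slides 4 to 9. PNPLA3 varied with SCD (r = 0.54, rho = 0.55, permutation p = 0.00462 and 0.00485, adjusted p = 0.0314 and 0.0292), at 0.60 within slides 1 to 3, 0.55 within slides 4 to 9 and 0.52 without the 2 farthest arrays. It also varied with ACLY (r = 0.51, rho = 0.56, permutation p = 0.00239 and 0.00179, adjusted p = 0.0287 and 0.0215), 0.54 without the 2 farthest arrays. The arrays of slides 4 to 9 alone gave 0.64 for that pair. Those of slides 1 to 3 gave -0.07, which rests on too few deviations to decide. The other ACLY probe gave 0.09, 0.32 and 0.21 with the 3 PNPLA3 probes, and 0.39, 0.35 and 0.74 with the 3 FASN probes. The remaining probe pairs of SCD and PNPLA3 lay between 0.21 and 0.59. Many other features followed these members more closely. Among all features compared, ACSS2 ranked 67, FASN 145 and PNPLA3 319 by their correlation with ACLY, and PNPLA3 ranked 377 with SCD.

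The 1 negative relation of the 6 pairs that passed by both r and rho was between ACACA and SREBF1, with r = -0.63 and rho = -0.67 (permutation p = 0.0006 and 0.00031, adjusted p = 0.0108 and 0.00558). It was -0.63 without the 2 farthest arrays, -0.25 within slides 1 to 3, -0.35 within slides 4 to 9 and 0.02 with slide removed. ACACA and SREBF1 differ in opposite directions between the slide sets, and the relation did not hold with slide in the fit.

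Another pair, ACACA with ACSS2, passed by rho alone (rho = 0.54, adjusted p = 0.0421; r = 0.46, adjusted p = 0.0935), at 0.77 within slides 1 to 3 and -0.03 within slides 4 to 9. Among all features compared, ACSS2 ranked 2021 by its correlation with ACACA.

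**Figure D5:**
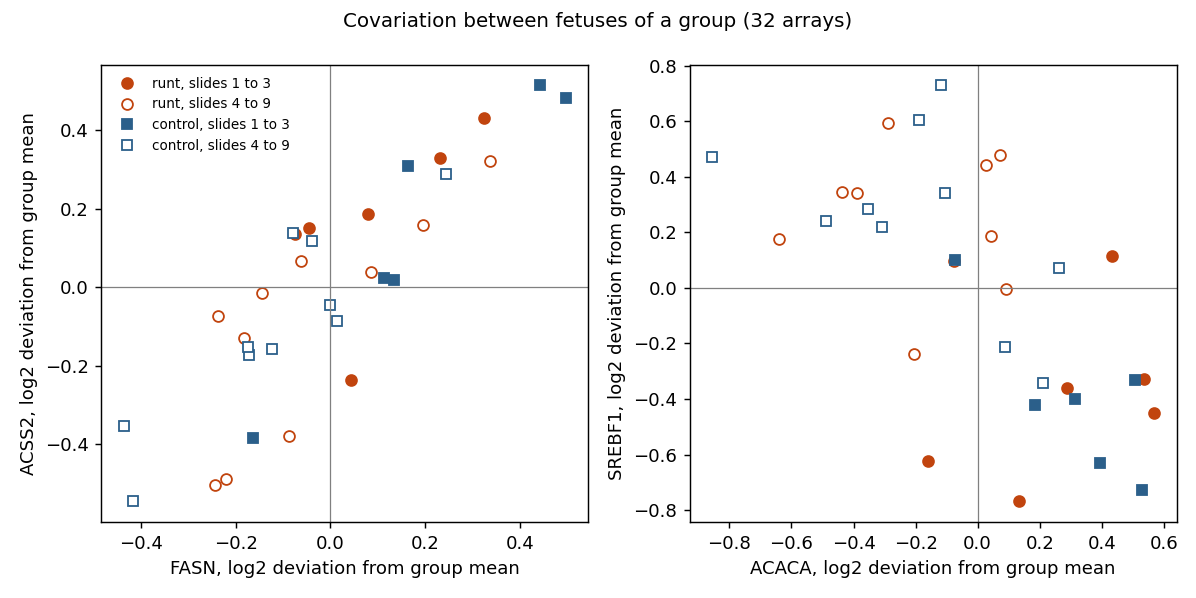
Deviation of ACSS2 against FASN (left) and of SREBF1 against ACACA (right) from the mean of their own group, on the log2 scale, 1 point per liver (circles runts, squares controls; filled slides 1 to 3, open slides 4 to 9). FASN and ACSS2 rise together over the 32 points (r = 0.86), whereas on the right the filled points sit mostly lower right and the open points upper left.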

How the data were processed

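Per the file headers, the intensities were Agilent single-colour processed signals from Feature Extraction 10.7.3.1, background-subtracted by the scanner software. The authors' deposited log2 table, for which the submitters' processing notes name Partek, was an alternative; its scale matched the log2 signals, with equal column maxima of 18.47. Control spots and outlier spots were left out, log2 signals were set against the 75th percentile of each array, and spots of a probe were averaged. Of 43603 probes, 2683 were named through RefSeq accessions (Sscrofa11.1, names only). A probe was tested when well above background on 3 of 4 arrays of a group. The 8 group means were fitted with limma 3.58.1 (R 4.3.3; 24 residual degrees of freedom) over all features, and the fit was tested on simulated data. Tests were two-sided. The members, the gene lists and the tests were chosen with earlier results of these data known. All 9 members were named, and other pathway genes where called; uncalled ones that are named were chosen after their values were seen. The number of arrays limits the precision, and p-values measure the spread between the livers of a group.

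Normexp used the median spot signal and median background with an offset of 50, since the mean signal was not in the columns used here. Equal replicate numbers are not stated to mark a litter. Deviations of same-numbered runts and controls correlated at -0.09 to 0.43, over 0.1 in 13 of 16 pairs and in all 4 pairs at days 37 and at 110. By that rule the numbers were taken to pair the livers at these 2 days only, which does not show a litter. The best match was the own number only for replicates 2 and 4 at day 37 and 1 and 4 at day 110, against 1, 2 and 4 at day 50. Replicate 4 was always on slides 1 to 3 and replicates 1 and 2 on slides 4 to 9. The part of slide set in these correlations was not tested. The alternatives were the background correction, the source of values, quantile normalization, the percentile, 3 filters, slide as a block, each slide set alone, a replicate block, the arrays in the fit, the mean over probes, each array left out, and, added after seeing the data, leaving out the lone array of slide 9.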

Additional observations from a re-analysis of the deposited data

Results flagged for a closer look

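Among the 72 groups of 4 arrays, 3 held a liver far from the other 3 by the gap to its nearest neighbour over the group's range (Dixon's test at the 95% level). Chance marks about 1 group in 20. FASN in day 50 runt replicate 3 was at 7.55, with the nearest other at 7.31 (0.851 of the range). SCD in day 50 control replicate 3 was at 7.27, against 6.94 (0.904 of the range). PNPLA3 in day 37 runt replicate 3 was at 1.93, against 1.53 (0.936 of the range). Without that FASN value the day 50 difference between runts and controls was 0.29 instead of 0.36, and without that PNPLA3 value the runt course from day 37 to day 110 kept its call.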

How the results depend on the processing

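No called difference of the 9 members changed sign in 138 recomputed values, and 299 of 3048 uncalled ones did. The replicate block left the counts of called members as they were, 2 and 2 from day 37 to day 110 and 1 and 1 from day 70 (runts and controls), and 0 elsewhere. From day 37 to day 110 the 2 called members in runts became 0 with normexp, 1 within slides 4 to 9 and 0 with the mean over probes, and 1 to 2 with 1 array left out. The 2 in controls became 1 with normexp and 1 with the mean over probes, and 1 to 2 with 1 array left out. Within slides 1 to 3, where replicate 4 alone stands for each of these days in controls, ACACA was at 1.15 and PNPLA3 at -2.35. From day 70 to day 110 the 1 in runts became 0 with normexp, 0 within slides 4 to 9 and 0 with the mean over probes. It became 2 with slide as a fixed block (PNPLA3 at -1.12) or a random block (PNPLA3 at -1.05), and was 1 to 2 with 1 array left out, PNPLA3 passing without day 70 runt replicate 4 (-1.24) or day 110 runt replicate 2 (-1.35) or 4 (-1.05). At day 50 normexp called 2 members higher in runts, ACACA (0.86) and LPIN1 (0.84), and 6 of the 12 pathway genes: PPARG, turned to 0.58 (adjusted p = 0.0479), ELOVL3, SCD5, AGPAT1, PNPLA2 and PRKAA1. That setting also moved the median of all features there to 0.34, against -0.02, and the cause was not tested. With the percentile over probes above background on all arrays, the median of all features from day 50 to day 70 was -0.20 in runts and in controls. Without the lone array of slide 9 every count of called members was the same. Signal close to background limits the values of ACACA and LPIN1.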
